A study of Mus musculus with 14 samples.

Results

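The Gimap family of mouse spleen was followed over 10 probe sets on 14 oligonucleotide arrays. The members were the 8 genes Gimap1, Gimap3, Gimap4, Gimap5, Gimap6, Gimap7, Gimap8 and Gimap9. They are 8 of the 15964 genes with a probe set of their own and were found as the probe sets whose single gene symbol in the array annotation was one of these names, out of 29131 probe sets that named 1 gene. Gimap3 and Gimap4 had 2 probe sets each and every other member had 1. The arrays compared a fraction of mouse primary spleen cells rich in follicular dendritic cells (FDC), which display antigen in B cell follicles, with a fraction that had lost them. Total RNA was measured on 3 array sets, named A, B and C after the letter in each label, with depleted samples 1 and 2 on every set, enriched samples 1, 2 and 3 on sets A and C and enriched samples 2 and 3 on set B. The sources used here state no mouse strain, age or treatment and no way of making the fractions. Whether each sample had its own animal is also unstated, so the spread between samples may be technical. The family was chosen on the difference between the fractions, which was known when it was picked, so the members' values are given as a description and carry no p-value.

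GIMAP proteins (GTPases of the immunity-associated protein family) bind GTP through an AIG1-type domain related to that of septins, and several are anchored in membranes of mitochondria, endoplasmic reticulum or lysosomes. They are best known in lymphocytes, where loss of single members shortens the life of resting T cells and, for some, of B cells. A damaged Gimap5 gene causes the T cell deficiency of the diabetes-prone BB rat. The arrays measured whole fractions and not sorted lymphocytes, so the term lymphocyte GTPases rests on background and was not itself measured here.

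The fractions differed broadly. On set A, 17.9% of tested probe sets were lower and 23.1% higher in the enriched fraction (limma, adjusted p under 0.05, Benjamini-Hochberg within the set). Which direction had more calls depended on the scaling, since 43.7% of the calls on set A were lower at the deposited scale, 58.5% after quantile normalization and 57.3% when arrays were scaled to the median array. On set B the shares of tested probe sets were 17% lower and 19.4% higher, and on set C 8.73% and 9.5%. Of 12 tested genes of the FDC list 11 rose in the enriched fraction and none fell, the direction the label gives. That list was written with earlier results of these data known, so the count is a description only. It shares Vcam1 with the macrophage list. It leaves out Cr2 and Fcer2a, which were counted as B cell genes and fell (log2 differences -0.42 and -1.48). The B cell chemoattractant gene Cxcl13 read 32.4 ± 9.11 (SD, n = 2) in the depleted and 1358 ± 192 (SD, n = 3) in the enriched fraction, an 11.9-fold rise with adjusted p = 1.83e-07 (limma). Folds of Gimap probe sets are ratios of mean intensity, whereas folds of all other genes come from log2(intensity + pseudocount), which gives smaller folds for dim genes. In RNA from whole fractions, fewer cells of a type and less RNA per cell cannot be told apart.

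All 8 genes lie side by side on mouse chromosome 6, in the order Gimap8, Gimap9, Gimap4, Gimap6, Gimap7, Gimap1, Gimap5 and Gimap3 along the RefSeq gene table of assembly GRCm38.p6, with no other protein-coding gene between them. Gimap6 and Gimap3 are read from the minus strand and the other members from the plus strand. The gene table also lists Gimap5 as a former name of Gimap3, so older names of these genes can be confused. The RefSeq promoter windows (GRCm38.p6) matched all 8 genes in 9 windows. The 250 bases before the start are shown for the 3 genes with the largest drop in the enriched fraction and for Gimap5, whose signal was alike in both fractions. Both strands were searched, and capitals mark a match to an ETS motif, GGAAGT, or to a RUNX motif, TGTGGT. A match on the other strand appears as its reverse complement.
Gimap3, chr6:48770852-48771101, minus strand: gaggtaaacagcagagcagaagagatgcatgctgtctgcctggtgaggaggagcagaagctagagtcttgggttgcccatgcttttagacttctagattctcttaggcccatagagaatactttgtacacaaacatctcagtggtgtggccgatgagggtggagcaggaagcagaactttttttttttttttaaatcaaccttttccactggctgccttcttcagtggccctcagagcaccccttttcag
Gimap8, chr6:48646984-48647233, plus strand: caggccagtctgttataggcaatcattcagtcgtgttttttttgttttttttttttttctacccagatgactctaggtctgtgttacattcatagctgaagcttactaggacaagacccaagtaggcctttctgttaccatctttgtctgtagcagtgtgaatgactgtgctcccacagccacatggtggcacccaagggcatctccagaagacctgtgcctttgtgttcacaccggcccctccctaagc
Gimap7, chr6:48718371-48718620, plus strand: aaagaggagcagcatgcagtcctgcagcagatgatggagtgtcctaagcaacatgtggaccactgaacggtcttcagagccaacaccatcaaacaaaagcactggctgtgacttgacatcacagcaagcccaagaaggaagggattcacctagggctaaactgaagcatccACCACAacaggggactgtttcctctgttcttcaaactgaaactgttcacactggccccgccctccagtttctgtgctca
Gimap5, chr6:48745947-48746196, plus strand: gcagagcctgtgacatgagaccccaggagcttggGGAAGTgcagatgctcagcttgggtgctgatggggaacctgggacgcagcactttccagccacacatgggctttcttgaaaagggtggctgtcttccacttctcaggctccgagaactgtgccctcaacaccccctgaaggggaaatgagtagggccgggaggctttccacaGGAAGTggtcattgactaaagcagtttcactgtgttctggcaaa
The Gimap5 window held the ETS letters at 2 places, the Gimap7 window held the RUNX letters once, and the Gimap3 and Gimap8 windows held neither. Over the members, 2 of 9 windows held the ETS letters and 3 held the RUNX letters, against 19.7% and 14% of 32851 mouse windows of the same length. A GATA motif (AGATAA) was in none of the 9 and in 9.99% of all windows, the TATA box (TATAAA) was in 1 and in 12.4%, and the E-box CAGGTG was in 1 and in 17.2%. Such matches describe letters only.

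Gimap3, which has been tied to mitochondria and to Bcl2 family proteins in T cells, had the largest difference of the family. Its probe set 115149_at read 1057 and 1067 on the depleted arrays of set B and 151.9 and 153.7 on the enriched arrays. The depleted readings lay far above the enriched ones, with hardly any spread within either fraction. The mean dropped 6.95-fold, from 1062 ± 7.33 (SD, n = 2) to 152.8 ± 1.27 (SD, n = 2). On the log2 scale with a pseudocount of 81.23, which understates changes of dim probe sets, the difference between enriched and depleted was -2.29 (SE 0.06). Of 7786 tested probe sets of set B, 4 had a lower difference, a rank on the same contrast by which the family was chosen. Both enriched readings lay at the percentile 39.3 of their arrays, under the 40th percentile used as a filter on dim probe sets.

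The second Gimap3 probe set, 110710_at, was lower too but by less. It read 639.1 and 586.1 on the depleted and 270.4 and 322.7 on the enriched arrays. The fractions did not overlap, and enriched sample 2 lay below enriched sample 3. The mean went from 612.6 ± 37.5 (SD, n = 2) to 296.6 ± 37 (SD, n = 2), a 2.07-fold drop, with a log2 difference of -0.88 (SE 0.08). Both Gimap3 probe sets thus had the same direction on the same arrays and unequal sizes. Probe sequences were not used here, so whether either also reads Gimap5, the neighbouring gene, was not tested.

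Gimap8, the largest protein of the family with several GTP-binding domains, was next in size. Its probe set read 1253 and 1321 on the depleted and 325.3 and 330.8 on the enriched arrays of set B. The drop was 3.92-fold, from 1287 ± 48.4 (SD, n = 2) to 328 ± 3.91 (SD, n = 2), with a log2 difference of -1.74 (SE 0.06). Both enriched arrays lay near each other and well under the depleted pair. In rank within its own array, the Gimap8 probe set went from the percentiles 96.8 and 97.3 to 66.7 and 67.

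Gimap7, whose human counterpart speeds GTP hydrolysis by other GIMAP proteins, read 497.9 and 506.7 on the depleted and 148.3 and 140.1 on the enriched arrays. The fractions were again apart. The mean dropped 3.48-fold, from 502.3 ± 6.2 (SD, n = 2) to 144.2 ± 5.78 (SD, n = 2). The enriched readings lay at the percentiles 36.1 and 38.5 of their arrays, under the 40th percentile used as a filter on dim probe sets. On the log2 scale the difference was -1.37 (SE 0.06).

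Gimap1, Gimap4 on set A and Gimap6 kept 52.4%, 47.9% and 52.6% of their mean intensity in the depleted fraction. Gimap1, needed for the survival of mature T and B cells, read 690.9 and 757.6 on the depleted arrays of set A and 377.9, 398.6 and 361.4 on the enriched arrays. All 3 enriched readings lay under both depleted ones. The mean dropped 1.91-fold, from 724.2 ± 47.2 (SD, n = 2) to 379.3 ± 18.7 (SD, n = 3), with a log2 difference of -0.8 (SE 0.08) at a pseudocount of 88.49. Gimap4, which hastens the death of T cells that have received an apoptotic signal, read 2565 and 2645 on the depleted and 1212, 1346 and 1183 on the enriched arrays at its probe set on set A. Enriched sample 2 was the highest of the enriched arrays and still lay far below either depleted one. The means were 2605 ± 56.7 (SD, n = 2) and 1247 ± 87.2 (SD, n = 3), a 2.09-fold drop, and the log2 difference was -1.01 (SE 0.08).

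Gimap6, which binds the autophagy protein Gabarapl2, read 2770 and 2501 on the depleted and 1359 and 1414 on the enriched arrays of set B. The fractions did not overlap. The drop was 1.9-fold, from 2636 ± 190 (SD, n = 2) to 1386 ± 38.5 (SD, n = 2), with a log2 difference of -0.89 (SE 0.07). Its probe set stayed among the bright ones of the array, at the percentiles 99.6 and 99.7 in the depleted and 97.4 and 97.7 in the enriched fraction.

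Gimap9 had the smallest drop among the probe sets that did not overlap. It read 223.1 and 218.1 on the depleted and 135 and 147.7 on the enriched arrays, a 1.56-fold drop from 220.6 ± 3.5 (SD, n = 2) to 141.4 ± 8.97 (SD, n = 2). The log2 difference was -0.44 (SE 0.06), and the enriched readings lay at the percentiles 35.2 and 37.9 of their arrays.

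Gimap5 did not follow the other members. Its probe set read 771.2 and 747.7 on the depleted and 768.9 and 803.5 on the enriched arrays of set B. The readings of the fractions overlapped, since enriched sample 2 lay between the depleted samples. The means were 759.4 ± 16.7 (SD, n = 2) and 786.2 ± 24.5 (SD, n = 2), and the log2 difference was 0.05 (SE 0.06). The same RNA samples gave lower readings for 6 other Gimap probe sets on these arrays.

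The second Gimap4 probe set, 135687_r_at on set C, did not share the drop of the first. It read 1699 and 1632 on the depleted and 1760, 1538 and 1617 on the enriched arrays, and the fractions overlapped. The means were 1666 ± 47.7 (SD, n = 2) and 1638 ± 112 (SD, n = 3), with a log2 difference of -0.02 (SE 0.06) at a pseudocount of 53.13. The letter r in its name is the array maker's mark for a probe set that did not meet all design rules. The labels give the same sample names on sets A and C. The Gimap4 readings thus disagree between probe sets on different arrays of samples with the same names. Which of them follows Gimap4 RNA was not tested.

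**Figure D1:**
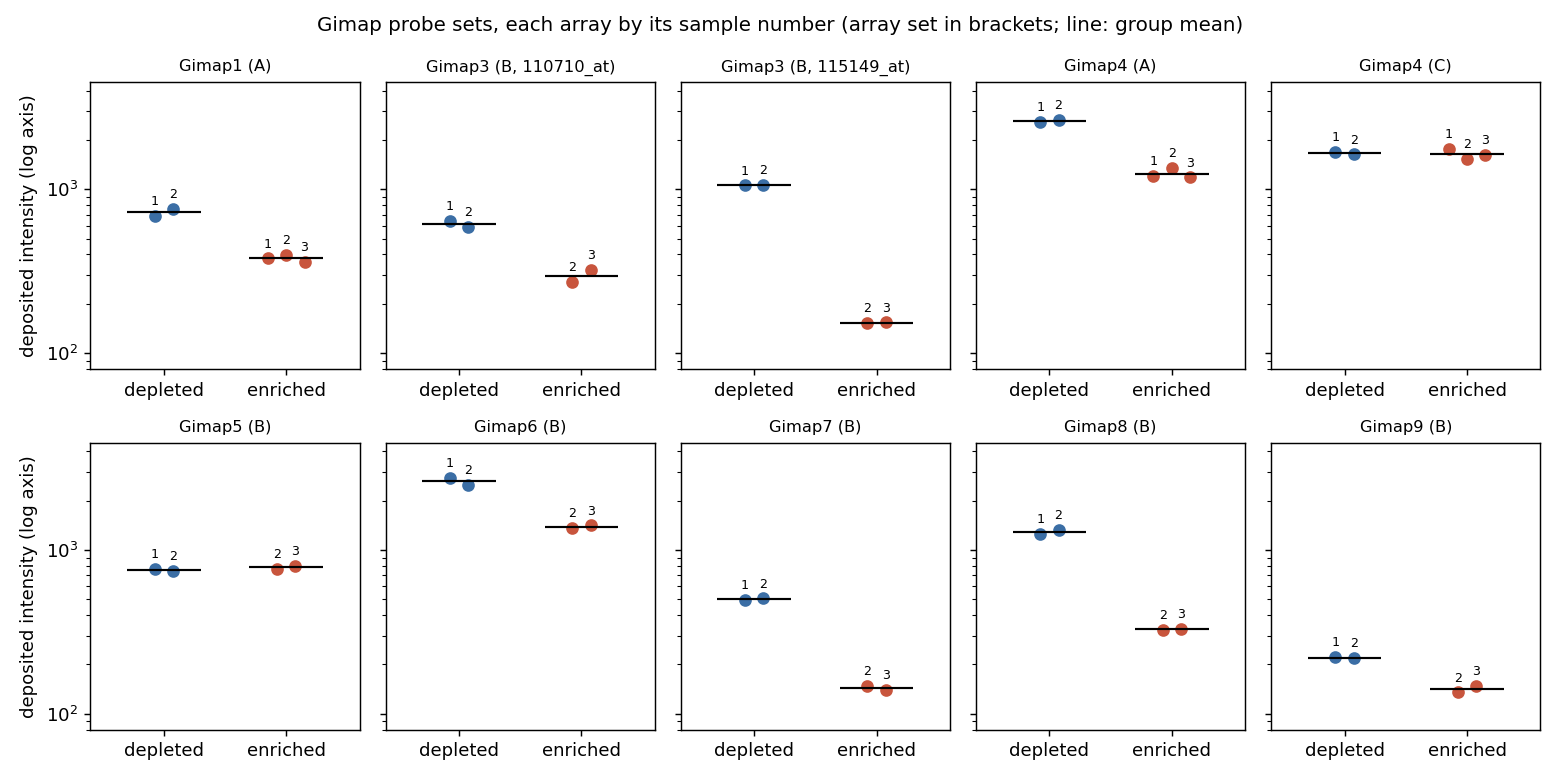
Deposited intensity on a log axis of each Gimap probe set on every array, with the depleted samples in blue, the enriched samples in red, the sample number above each point and a line at the group mean. The fractions are apart for 8 probe sets and overlap for Gimap5 on set B (768.9 and 803.5 against 771.2 and 747.7) and for Gimap4 on set C.

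Counted over the family, 8 of 10 probe sets, from 7 of 8 genes, passed as lower in the enriched fraction and none as higher. On set A this was 2 of 2, beside 17.9% of all tested probe sets, on set B 6 of 7, beside 17%, and on set C 0 of 1, beside 8.73%. Every enriched array lay below every depleted array for the same 8 probe sets, as it did for 28.6%, 33.3% and 20.5% of all tested probe sets on A, B and C. The family had been chosen on this contrast, so nothing is read from these counts. All 10 probe sets passed the filter on dim probe sets, but 3 of them (Gimap3 115149_at, Gimap7 and Gimap9) did so only through the depleted arrays. With either depleted array of set B left out, these 3 were no longer above the filter and 5 of the other 7 probe sets passed. The median log2 difference of the 10 probe sets was -0.88, and that of all tested probe sets was 0.02 on A, 0.001 on B and 0.02 on C.

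**Figure D2:**
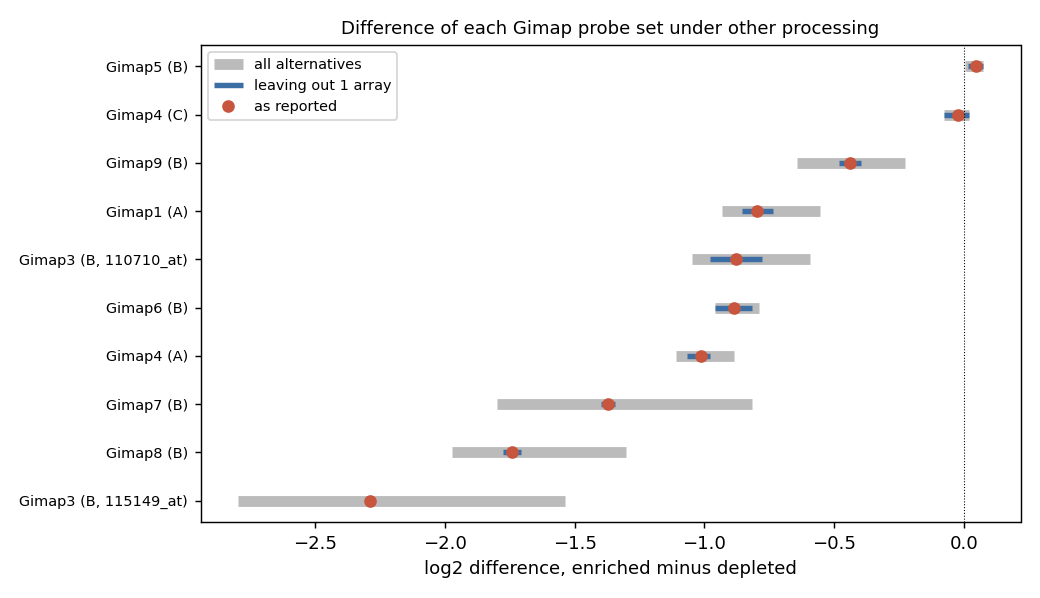
Log2 difference between enriched and depleted of each Gimap probe set as reported (red), with the range over leaving out single arrays (blue). Grey marks the range over all alternatives together, the fits without single arrays included. The 8 lower probe sets stay below 0 under all settings in which they were tested, from -2.8 to -1.54 for Gimap3 115149_at and from -0.64 to -0.23 for Gimap9. The range of Gimap4 on set C spans 0 when single arrays are left out (-0.08 to 0.02).

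None of the tested genes beside the cluster fell. Of the 6 protein-coding genes on either side, 8 of 12 had a tested probe set, of which 4 rose, none fell and 4 did not pass. Tmem176b and Tmem176a, membrane protein genes of myeloid and dendritic cells that adjoin Gimap3, rose 6.85-fold and 5.25-fold. Tmem176b went from 645.1 ± 31.9 (SD, n = 2) to 4940 ± 245 (SD, n = 3), with adjusted p = 1.37e-07 (limma), and Tmem176a from 352.7 ± 19.7 (SD, n = 2) to 2240 ± 286 (SD, n = 3), with adjusted p = 1.20e-06 (limma). On the far side Rarres2, which encodes the chemoattractant chemerin, rose 3.91-fold to 901.9 ± 67.3 (SD, n = 3) after 167.2 ± 50.3 (SD, n = 2), with adjusted p = 5.59e-06 (limma). Doxl1 rose 1.15-fold (limma, adjusted p = 0.0232), a call lost without depleted sample 2 (0.138), enriched sample 2 (0.0752) or enriched sample 3 (0.0527) of set C, and with a replicate block (0.0995). Zfp775, which adjoins Gimap8, had a log2 difference of -0.05, Repin1 had -0.12, Atp6v0e2 0.04 and Aoc1 -0.04, and none of these passed.

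**Figure D3:**
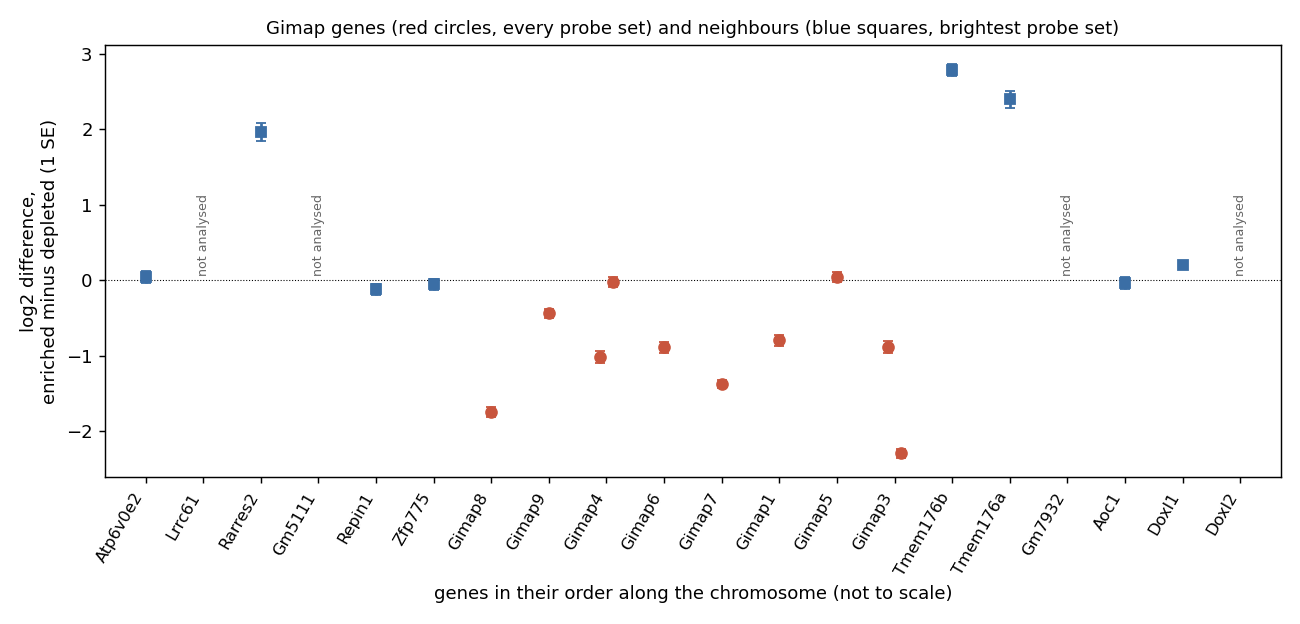
Log2 difference between enriched and depleted (bars, 1 SE) of the Gimap genes (red circles, every probe set) and of the 6 protein-coding genes on either side (blue squares, brightest tested probe set), in their order on the chromosome and not to scale. Tmem176b (2.78) and Tmem176a (2.39) stand beside the lowest Gimap3 probe set (-2.29).

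Lymphocyte markers were lower in the enriched fraction as well. Of 18 tested T cell genes 14 fell, none rose and 4 did not pass, with a median log2 difference of -0.92. Their summed intensity over the 15 genes of set A was 13587 and 13974 in the depleted and 5452 to 6251 in the enriched fraction. Of 21 B cell genes 19 fell and none rose (median -1.45), and the 15 of set A summed to 37307 and 37907 against 13133 to 16548. Of 12 NK cell genes 9 fell and 1 rose (median -0.51), the 9 of set A summing to 8202 and 8267 against 5010 to 5464. The T cell receptor gene Cd3d, which had the lowest log2 difference of its list, read 912.6 ± 81 (SD, n = 2) in the depleted and 53.5 ± 8.43 (SD, n = 3) in the enriched fraction. The enriched reading lies under the 20th percentile of set A's positive values (88.49), and array intensity holds background, so it does not show whether Cd3d RNA was left. Without depleted sample 1 of set A, and likewise without depleted sample 2, 6 of the falling T cell genes dropped below the filter and were not tested, and 7 of the 12 left fell. The NK cell rise was lost in both cases. How much of the Gimap difference goes with these cell types was not tested.

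Set beside these genes, Gimap3 at 115149_at had a lower difference than all but 4 of the 18 T cell, 1 of the 21 B cell and 1 of the 12 NK cell genes. For Gimap8, 6 T cell and 6 B cell genes were lower, and for Gimap7 8 and 11. Gimap1, Gimap6, Gimap4 on set A and the second Gimap3 probe set each had 9 T cell genes below them and 14 to 16 B cell genes. All 18 T cell and all 21 B cell genes lay below Gimap5. The members thus ran over most of the range of T cell genes, -2.82 to 0.04. The upper end of that range was 1 gene, Zap70, read by a probe set with the letter r in its name. The next T cell gene was Lat at -0.1, and both Gimap5 and Gimap4 on set C (-0.02) lay above it.

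**Figure D4:**
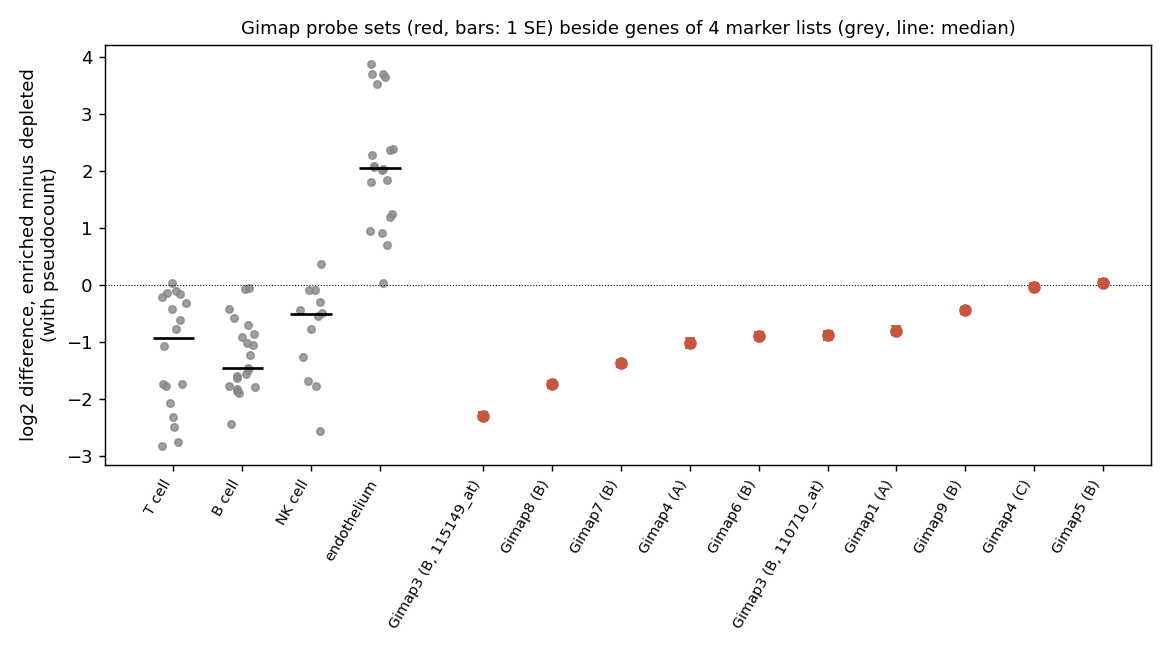
Log2 difference between enriched and depleted of each Gimap probe set (red, bars 1 SE), beside the single genes of the T cell, B cell, NK cell and endothelium lists (grey, line at the median). The 10 Gimap probe sets run from -2.29 to 0.05, within the range of the T cell genes apart from Gimap5, and the endothelial genes lie at 0.03 or above. The upper end of the T cell genes is Zap70 alone (0.04), read by a probe set with the letter r in its name.

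Other cell types went the other way. Of 20 tested endothelial genes 19 rose and none fell (median 2.06), and the 14 of set A summed to 3677 and 3868 in the depleted and 23269 to 25970 in the enriched fraction. The fenestral diaphragm gene Plvap rose 14.8-fold (limma, adjusted p = 4.42e-10). Of 17 macrophage genes 15 rose and none fell (median 0.78), and the 13 of set A went from 12455 and 14613 to between 26785 and 31257. The part of these cells in the Gimap5 reading and in the second Gimap4 reading was not tested.

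Genes for reported partners of the family and for autophagy, taken as 1 list, moved in both directions, with more rises than falls. Among 19 tested genes for reported GIMAP partners and autophagy, 12 rose, 3 fell and 4 did not pass, with a median log2 difference of 0.35. Gabarapl2, the Atg8-type protein bound by Gimap6, rose 1.36-fold to 966.8 ± 79.3 (SD, n = 3) after 684.3 ± 4.85 (SD, n = 2), with adjusted p = 0.00332 (limma). Its relative Gabarapl1 rose 3.21-fold and the autophagy receptor gene Sqstm1 3-fold. Bcl2, the survival protein tied to Gimap5 and Gimap3, fell 1.47-fold to 590.8 ± 16.5 (SD, n = 3) after 907.9 ± 69.9 (SD, n = 2), with adjusted p = 0.000604 (limma). Bcl2l1 and Bcl2l11 had log2 differences of 0.35 and 0.4 and passed with adjusted p = 0.0458 and 0.0218 (limma). Bcl2l1 did not pass without depleted sample 2 (0.438), enriched sample 2 (0.0955) or enriched sample 3 (0.106) of set A. Its adjusted p was also 0.109 after quantile normalization, 0.136 with arrays scaled to the median array, 0.0526 with no filter and 0.06 with a replicate block. Bcl2l11 did not pass without depleted sample 1 (0.215) or enriched sample 3 (0.0505) of set A, nor with arrays scaled to the median array (0.0533). The rises numbered 8 to 13 when single arrays were left out.

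Genes of lymphocyte survival and egress were mixed. Of 22 tested, 9 fell, 4 rose and 9 did not pass (median -0.14). Bcl2, Bcl2l1 and Bcl2l11 are also in the list of partners and autophagy, and Il7r is also in the T cell list. The counts of these lists are therefore not independent. Il7r, the receptor for the survival cytokine of resting T cells, fell 6.76-fold to 101.6 ± 6.51 (SD, n = 3) after 1197 ± 78 (SD, n = 2). Btg1, a gene of resting lymphocytes, fell 3.1-fold. Ccr7, a homing receptor gene, fell 2.57-fold, and Foxo1, a transcription factor gene of resting T and B cells, 1.39-fold. Mcl1, a survival gene of many cell types, rose 1.58-fold on set C. Without depleted sample 1 of set A, 5 fell and 2 rose, with Il7r and Bid below the filter and not tested. The rises were also 2 without depleted sample 2 or enriched sample 3 of set A, and 2 and 1 under quantile normalization and scaling to the median array.

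Other GTPase families differed from the Gimap genes in their counts, a difference that was not tested. Of 9 tested interferon-inducible GTPase genes 4 rose and 1 fell (median 0.25). Iigp1 rose 2.28-fold and Gbp8 fell 1.36-fold, and 2 fell without enriched sample 3 of set B. Of 17 genes for septins, which share a related GTP-binding domain, and dynamins, 2 rose, 2 fell and 13 did not pass (median 0.07). Septin4 rose 3.56-fold, while Septin6 fell 1.56-fold and Septin1 1.43-fold. Without enriched sample 1 of set A 5 rose. Without either depleted sample of set A, Septin1 dropped below the filter and was not tested, which left 1 falling gene.

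The genes with the most similar pattern were found by the root mean square difference between centred log2 profiles over the arrays of a set. Nearest to the mean of the 7 Gimap probe sets of set B, over 4 arrays, were Camk1d (0.03), Ripor2 (0.04), Ell3 (0.05), Safb2 (0.05) and Sash3 (0.05). Camk1d, the nearest, read 599 ± 1.2 (SD, n = 2) in the depleted and 242.8 ± 2.08 (SD, n = 2) in the enriched fraction. Sash3, an adaptor gene of lymphocytes and the farthest of the 5, read 1506 ± 12.9 (SD, n = 2) and 638.7 ± 18 (SD, n = 2). On set A, over 5 arrays, Tlr6 (0.03), Tmem71 (0.04), Vav1 (0.04), Ggnbp2 (0.04) and Tk2 (0.04) were nearest to the mean of Gimap1 and Gimap4. Tlr6, the nearest, went from 267.7 ± 18.8 (SD, n = 2) to 105.4 ± 5.72 (SD, n = 3). Vav1, a signalling gene of blood cells, went from 1424 ± 16.1 (SD, n = 2) to 681.8 ± 34.2 (SD, n = 3). On set C the single Gimap4 probe set was flat, and its nearest genes, Coa8, Hectd2os, Coq6, Lmna and Prep, had log2 differences of -0.03 to 0.02. With 4 or 5 arrays such likeness follows mainly the difference between the fractions.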

How the data were processed

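For each array set the authors deposited a table of intensity on a linear scale. The steps from scan to table, summary and scaling included, are unstated in the sources used here. Sets A, B and C hold 12488, 12477 and 11934 probe sets. Within a set, trimmed array means (2% at each end) lay within a factor of 1.08, so the deposited scale was kept. No value of a Gimap probe set was missing. Probe sets were named through the array annotation, with symbols updated by Entrez identifier to the gene table of GRCm38.p6.

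Each set was fitted alone with limma 3.58.1 in R 4.3.3 (lmFit, eBayes with a trended prior variance, two-sided) on log2(intensity + pseudocount), the pseudocount being the 20th percentile of the positive values. Testing was limited to probe sets that exceeded the 40th percentile on 2 or more arrays, 7895, 7786 and 7358 in all, without array controls. P-values were adjusted by Benjamini-Hochberg within the set and passed under 0.05. The number of arrays limits the precision. For genes in lists the brightest tested probe set stood for the gene. Named genes are every Gimap probe set, up to 4 passing genes per list whose fractions did not overlap, tested neighbours in the cluster, and the 5 nearest genes by pattern. Gabarapl2, Bcl2, Bcl2l1, Bcl2l11 and Foxo1 lie outside this rule and were chosen after their values were seen. Cr2, Fcer2a, Vcam1, Bid, Zap70 and Lat, named to explain counts or ranges of the lists, lie outside it as well. The scripts were tested on simulated data. Members and lists were chosen with earlier results of these data known. A comparison of protein sequences was planned and not run. One further gene list is not reported here.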

Additional observations from a re-analysis of the deposited data

How the results depend on the processing

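The 8 lower Gimap probe sets kept their direction under every setting in which they were tested, and 8 passed under quantile normalization, scaling to the median array, either other pseudocount, no filter, no trend and array weights. Their number was 5 to 8 when single arrays were left out, the lowest being without either depleted array of set B, when 3 of them dropped below the filter and were not tested. The median log2 difference of the 10 probe sets, -0.88 as reported, was -0.96 with the pseudocount divided by 4, -0.69 with one 4 times as large, -0.99 for plain ratios of mean intensity, and -0.95 to -0.82 leaving out single arrays. The small differences of Gimap5 and of Gimap4 on set C were 0.002 to 0.07 and -0.08 to 0.02 over all settings. In a fit with a replicate block on sets A and C, 2 of the 3 Gimap probe sets of those sets passed, as without it, 407 probe sets of set C were higher, 2 survival genes rose, and Bcl2l1 and Doxl1 did not pass. The correlation of deviations between samples of the same number was 0.03 and 0.06 on A and -0.31 and -0.15 on C. On set B the fractions share only 1 number. With 2 depleted arrays per set, whose deviations mirror each other, these values cannot show whether samples of the same number were prepared together.

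Among all probe sets, the direction with more calls turned with the scaling. At the deposited scale 43.7%, 46.7% and 47.9% of the calls on sets A, B and C were lower, after quantile normalization 58.5%, 53.3% and 52.4%, and with arrays scaled to the median array 57.3%, 55.4% and 56.8%. With array weights 2174 of set A were lower. Leaving out single arrays, 730 to 1650 were lower on A, 793 to 1294 lower on B, and 374 to 608 lower and 416 to 707 higher on C. In the lists these fits gave 7 to 14 falling T cell genes, 0 to 1 rising NK cell genes, 5 to 10 falling and 2 to 4 rising survival genes, 1 to 2 falling and 2 to 5 rising septin and dynamin genes and 1 to 2 falling interferon-inducible GTPase genes. Rising survival genes were 2 after quantile normalization and 1 when arrays were scaled to the median array, which gave 2 falling interferon-inducible GTPase genes, and 5 septin and dynamin genes rose with array weights. The falling T cell, survival and septin counts were lower in part because genes dropped below the filter when a depleted array of set A was left out. The cause of the other shifts was not tested. With 2 or 3 arrays per fraction, small differences such as those of Gimap5 and Doxl1 are at the limit of what these arrays show.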
